A study of Rattus norvegicus with 6 samples.

Results

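The genes described here are 8 members of the cholesterol synthesis pathway and its control by SREBP2. They are Srebf2, Insig1, Hmgcs1, Idi1, Fdps, Fdft1, Sqle and Cyp51, and they were found in the deposited count table as the rows whose symbol equals one of these names. All 8 were present among the 20609 genes of the table and all 8 passed the filter on low counts, which kept 12624 genes. The question was whether the messenger RNA levels of these genes differed between PC12 cells transfected with a PCBP1 overexpression plasmid (PCBP1-OE, 3 libraries) and PC12 cells transfected with a control plasmid (Ctrl, 3 libraries). PC12 cells derive from a pheochromocytoma, the chromaffin cell tumor of the adrenal gland, of a rat, and PCBP-1 is a protein that binds C-rich stretches of RNA. The study's methods describe an EGFP-tagged PCBP-1 plasmid delivered by lipofection, whereas its introduction speaks of stable overexpression. Neither the time from transfection to harvest for sequencing nor the make-up of the control plasmid is stated in its methods or the labels. Pcbp1 itself was not analysed here, so that the level of the transgene remains unchecked here.

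Cells make cholesterol from acetyl-CoA through mevalonate, isoprenoid diphosphates, squalene and a series of sterols. When sterols in the endoplasmic reticulum run low, the transcription factor SREBP2, encoded by Srebf2, is carried by SCAP to the Golgi, cut by proteases and released to the nucleus, where it turns on nearly every enzyme of the pathway and genes of cholesterol uptake. INSIG proteins hold SCAP back when sterols are plentiful, and Insig1 is itself an SREBP2 target, so the members include the factor, a brake on it and 6 enzymes that it induces. In the nervous system cholesterol is a major component of myelin and of synaptic membranes, and most of it is made locally.

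Depth and identity of the libraries bear on every value below. The libraries held 19730209 to 22315623 counts on genes, and each member had 856 to 8412 counts in every library, so that counting error alone was 1.09% to 3.42% of a value. The spread between replicates was larger in most cases, with a coefficient of variation of 1.70% to 13% over members and groups. Of 9 chromaffin markers 7 were in the table, and 5 of these, Dbh, Ddc, Chga, Chgb and Phox2a, had under 10 counts in every library, while Th, the rate-limiting enzyme of catecholamine synthesis, had 141 to 185 counts. The glial transcription factor Sox10 had 7160 to 9007 counts and S100b, a calcium-binding protein of glia, 4143 to 5339, so the labelled origin of the cells was not borne out by these chromaffin markers. Levels are given in CPM, the counts of a gene relative to its library total after TMM scaling. The marker sums are the exception and are relative to the library total without TMM scaling. The summed level of the 5 glial markers was 600 to 655 CPM in Ctrl and 583 to 617 CPM in PCBP1-OE, that of the chromaffin markers 8.44 to 9.74 and 8.99 to 10.2, that of 4 adrenal cortex markers 5.03 to 5.24 and 5.10 to 6.04, and that of 3 fibroblast markers 4.66 to 5.53 and 4.36 to 5.15. Without TMM scaling these sums overlapped between groups, and whether they overlap with it was not assessed. In contrast, 3 leukocyte markers summed to 6.32 to 7.39 CPM in Ctrl and 5.83 to 6.22 CPM in PCBP1-OE, also without TMM scaling. Ptprc, which defines leukocytes, was at 0 to 3 counts. With TMM scaling Sox10 was at 389, 408 and 402 CPM in Ctrl and at 362, 375 and 366 CPM in PCBP1-OE. Its groups thus did not overlap, as for 16.5% of all genes tested in this direction. Its log2 fold change of -0.12 did not pass the edgeR test (adjusted p = 0.0790). None of the 11 markers with enough counts passed an FDR of 0.05 in edgeR's quasi-likelihood test (2 at an unadjusted p under 0.05, and 0 with DESeq2, limma-voom or edgeR's exact test). The part of these markers in the results was not tested. In such bulk RNA, fewer cells of a type and less RNA per cell cannot be told apart.

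Promoter sequences are shown first for Srebf2, for Fdps, which passed the test below, and for Hmgcs1, which did not, because sterol control of this pathway acts at promoters. They are RefSeq sequences of the build GRCr8, which is not the build of the counts, on the strand of the gene, from 250 bases before to 50 after a transcription start. Promoters were matched by symbol for 6 members, and none was matched for Fdft1 and Sqle. Capitals mark the letters CCAAT, the core of the box bound by NF-Y, a factor that works together with SREBPs, in either orientation, and the letters TCACCCCA, which lie within the classical sterol regulatory element. The regions are chr7:115543057-115543356 for Srebf2 (plus strand), chr2:176804767-176805066 for Fdps (minus strand) and chr2:53382054-53382353 for Hmgcs1 (plus strand).
Srebf2: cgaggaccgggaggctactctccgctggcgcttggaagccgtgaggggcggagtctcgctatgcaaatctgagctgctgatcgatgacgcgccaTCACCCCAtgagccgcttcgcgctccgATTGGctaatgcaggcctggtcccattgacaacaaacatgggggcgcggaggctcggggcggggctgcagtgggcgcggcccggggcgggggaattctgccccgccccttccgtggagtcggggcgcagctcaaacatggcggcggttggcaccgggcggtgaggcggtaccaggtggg
Fdps: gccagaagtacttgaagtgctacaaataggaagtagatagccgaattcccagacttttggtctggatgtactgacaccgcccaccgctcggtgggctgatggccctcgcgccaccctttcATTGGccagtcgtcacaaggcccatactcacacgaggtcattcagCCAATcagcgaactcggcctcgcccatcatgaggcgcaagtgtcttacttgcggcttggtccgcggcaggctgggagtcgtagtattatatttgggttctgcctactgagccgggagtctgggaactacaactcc
Hmgcs1: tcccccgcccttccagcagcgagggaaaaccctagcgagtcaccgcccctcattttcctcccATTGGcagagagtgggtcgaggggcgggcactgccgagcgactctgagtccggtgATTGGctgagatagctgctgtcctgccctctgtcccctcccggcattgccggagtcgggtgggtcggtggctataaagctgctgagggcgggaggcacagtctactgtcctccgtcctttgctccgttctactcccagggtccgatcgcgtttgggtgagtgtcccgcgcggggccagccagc

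The CCAAT letters were found, on either strand, in 5 of the 6 member promoters and in 37.5% of all 33469 promoters in the table. Cyp51 was the member without them. The letters GGGCGG, the core of the Sp1 box, were also found in 5 of 6 and in 33.1% of all promoters, and Idi1 was the member without them. The letters TCACNCCAC and CACCCCAC, which overlap each other and are forms of the sterol element, were in 0 of 6 member promoters, against 1.12% and 2.70% of all promoters. TCACCCCA, which was added after the sequences had been read and overlaps the other forms, was in the Srebf2 promoter only, 156 to 149 bases before the start, and in 1.37% of all promoters. In the Fdps promoter the CCAAT boxes lie 130 to 126 and 85 to 81 bases before the start. Fdps, whose transcript passed the test, and Hmgcs1, whose transcript did not, thus both carry a pair of CCAAT boxes in this window. Idi1, whose transcript did not pass either, carries a pair too, 66 to 62 and 35 to 31 bases before the start. A match of letters is a description, and no match says only that these letters are not in this window.

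Among the 8 members, 3 were significantly lower in PCBP1-OE than in Ctrl and none was significantly higher. The 3 were Fdps, Fdft1 and Sqle, the consecutive enzymes that lead from isoprenoid diphosphates to squalene and its epoxide, and their fitted levels changed by -16.6%, -16.0% and -14.6%. A gene was called at an FDR of 0.05 or less, that is, an edgeR quasi-likelihood p adjusted by Benjamini-Hochberg over all genes tested. The same test called 9.45% of all genes, 5.0% lower and 4.45% higher in PCBP1-OE, against 37.5% of the members lower. The fitted log2 fold changes of all 8 members were below 0, from -0.26 to -0.01, with a median of -0.15, while the median over all genes tested was 0.0029. No member changed 2-fold, and the largest change of a member over all settings tried was 0.36 on the log2 scale. By the study's definition of a DEG, an FDR of 0.05 and a 2-fold change, 0 members and 0.190% of all genes (24) were called in this fit. The study reported more DEGs than that with edgeR at these cut-offs, and the reason for the difference was not tested. By the same definition 0 members were called with DESeq2, limma-voom or edgeR's exact test or at an unadjusted p under 0.05, which 4 members had at a smaller change.

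**Figure D1:**
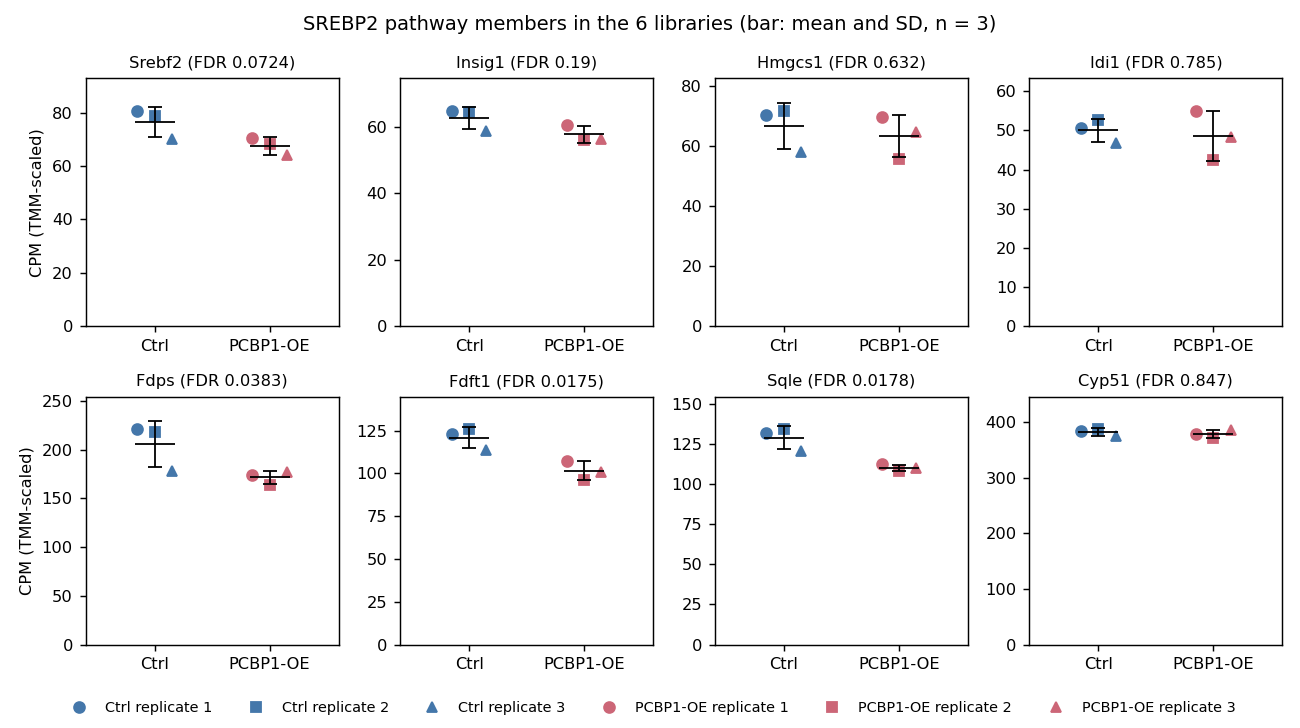
Level of each member in CPM, scaled by TMM, on the y axis (from 0) in the 3 Ctrl and 3 PCBP1-OE libraries; points are libraries, with shapes for the replicate number, and bars are the mean and SD of 3. Fdps, Fdft1 and Sqle have every PCBP1-OE library below every Ctrl library, and Ctrl replicate 3 is the lowest control in all 8 panels.

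Fdps (ENSRNOG00000043377, chromosome 2), farnesyl diphosphate synthase, makes the isoprenoid from which squalene, dolichol, ubiquinone side chains and protein prenyl groups all derive. Its level was 221, 218 and 178 CPM in Ctrl replicates 1 to 3 and 174, 164 and 177 CPM in PCBP1-OE replicates 1 to 3. The groups did not overlap, but Ctrl replicate 3 lay just above the highest PCBP1-OE library and far below the other 2 controls. The mean fell from 206 ± 23.8 to 172 ± 6.72 CPM (SD, n = 3 each), with a log2 fold change of -0.26 (SE of the fit 0.07, adjusted p = 0.0383 in the edgeR quasi-likelihood test). Without Ctrl replicate 3 the log2 fold change of Fdps was -0.36 (adjusted p = 1.9e-04), and with any other library left out it was -0.20 to -0.28 and did not pass (adjusted p = 0.0750 to 0.206).

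Fdft1 (ENSRNOG00000021314, chromosome 15), squalene synthase, joins farnesyl diphosphate molecules head to head in the first step committed to sterols. It was at 123, 126 and 114 CPM in Ctrl and at 107, 96.2 and 101 CPM in PCBP1-OE, with a gap between the groups. The mean fell from 121 ± 6.24 to 102 ± 5.53 CPM (SD, n = 3 each), and the log2 fold change was -0.25 (SE 0.05, adjusted p = 0.0175, same edgeR test). The call held without Ctrl replicate 3 (adjusted p = 0.00102) and without PCBP1-OE replicate 1 (0.0498). It was lost without Ctrl replicates 1 (0.0934) or 2 (0.140) and without PCBP1-OE replicates 2 (0.0842) or 3 (0.0612).

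Sqle (ENSRNOG00000009550, chromosome 7), squalene epoxidase, is the oxygen-using enzyme that acts next and is a point of control late in the pathway. Its level was 132, 134 and 121 CPM in Ctrl and 112, 108 and 110 CPM in PCBP1-OE. The 3 PCBP1-OE libraries lay close together and all below the lowest control. The mean fell from 129 ± 7.11 to 110 ± 2.0 CPM (SD, n = 3 each), with a log2 fold change of -0.23 (SE 0.05, adjusted p = 0.0178, same edgeR test). With 1 library left out the call of Sqle held without Ctrl replicate 3 (7.9e-04) and was lost in the other 5 fits (0.0638 to 0.148).

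These 3 were the members whose groups did not overlap. Over all genes tested, 16.5% had every PCBP1-OE library below every Ctrl library, so the 3 of 8 (37.5%) are to be read against that share. The members are well expressed, and the background differs at their levels. Among the 3888 genes whose mean level lay between those of the lowest and highest members (49.3 to 381 CPM), 59.6% had a log2 fold change below 0, with a median of -0.03, 10.2% were called lower and 5.53% higher, and 26.0% had a PCBP1-OE group entirely below Ctrl. Within that range 2.26% of genes had a log2 fold change at or below that of Fdps, 3.01% at or below Fdft1 and 4.81% at or below Sqle, while 55.3% were at or below Cyp51.

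**Figure D2:**
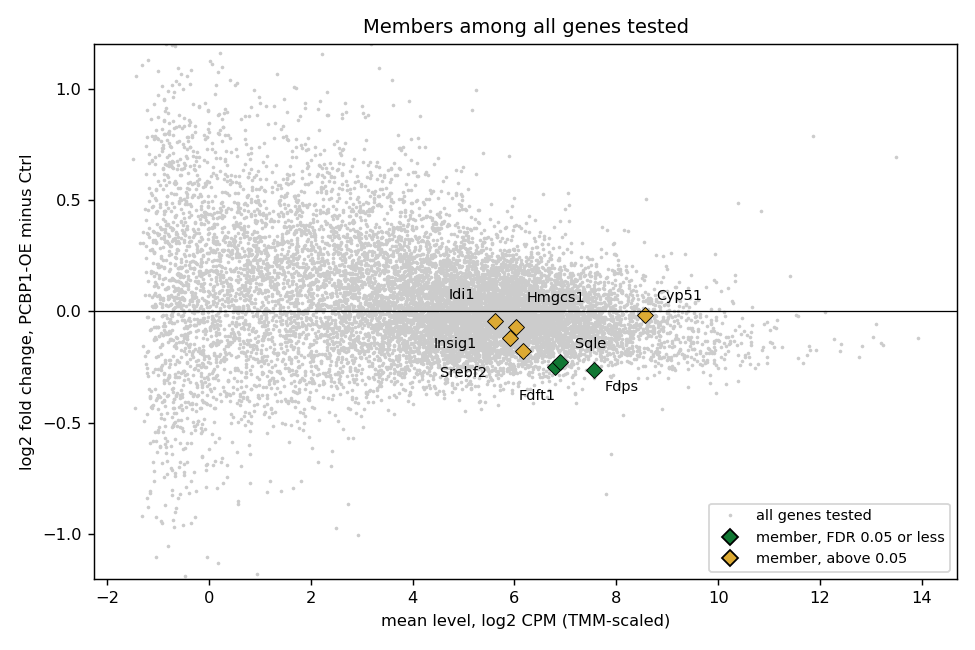
Log2 fold change, PCBP1-OE minus Ctrl (y axis), against mean level in log2 CPM, not per transcript length (x axis), for all 12624 genes tested (grey; 35 lie outside the axis) with the 8 members as diamonds, green where the FDR is 0.05 or less. The members lie between -0.26 and -0.01, with Fdps, Fdft1 and Sqle on the lower side of the cloud at their levels.

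Neither regulator among the members passed the test. Srebf2 (ENSRNOG00000007400, chromosome 7), the gene of SREBP2, was at 80.8, 78.6 and 70.2 CPM in Ctrl and at 70.4, 68.2 and 64.0 CPM in PCBP1-OE. The groups met at Ctrl replicate 3 and PCBP1-OE replicate 1. Its mean was 76.5 ± 5.57 against 67.5 ± 3.23 CPM (SD, n = 3 each), with a log2 fold change of -0.18 (SE 0.06, 95% interval -0.31 to -0.05, adjusted p = 0.0724 in the edgeR quasi-likelihood test). Srebf2 passed without Ctrl replicate 3 (0.00487) and with no filter on low counts (0.0254).

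Insig1 (ENSRNOG00000006859, chromosome 4), the sterol-dependent anchor of SCAP, was at 64.8, 64.3 and 58.6 CPM in Ctrl and at 60.5, 56.0 and 56.4 CPM in PCBP1-OE, and the groups overlapped. Its log2 fold change was -0.12 (SE 0.06, 95% interval -0.24 to 0.0042, adjusted p = 0.190, same edgeR test). It passed in 1 of 14 alternatives, without Ctrl replicate 3 (0.0441).

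The other 3 members had changes within the spread between replicates. Hmgcs1 (ENSRNOG00000016552, chromosome 2), the synthase that makes HMG-CoA, was at 70.2, 71.7 and 58.0 CPM in Ctrl and at 69.6, 55.6 and 64.7 CPM in PCBP1-OE, and the ranges nearly coincided. Idi1 (ENSRNOG00000016690, chromosome 17), which interconverts the isopentenyl and dimethylallyl building blocks, was at 50.5, 52.7 and 46.9 CPM in Ctrl, inside the range of 55, 42.4 and 48.2 CPM in PCBP1-OE. Their log2 fold changes were -0.07 (95% interval -0.26 to 0.12, adjusted p = 0.632) and -0.04 (-0.22 to 0.14, adjusted p = 0.785) by the same edgeR test.

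Cyp51 (ENSRNOG00000007234, chromosome 4), the cytochrome P450 that demethylates lanosterol, was the member with the narrowest spread between replicates. It was at 385, 387 and 375 CPM in Ctrl and at 378, 372 and 385 CPM in PCBP1-OE. The log2 fold change was -0.01 (95% interval -0.10 to 0.07, adjusted p = 0.847, same edgeR test). Its interval therefore leaves out changes of the size fitted for Fdps, Fdft1 and Sqle. Cyp51, Idi1 and Hmgcs1 changed sign under at least 1 alternative, with upper-quartile scaling or without Ctrl replicate 2 for Cyp51, without Ctrl replicate 2 or PCBP1-OE replicate 2 for Idi1 and without PCBP1-OE replicate 2 for Hmgcs1.

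The lowest control was the same library for every member. Ctrl replicate 3 was the lowest control for 8 of 8 members, as it was for 37.0% of all genes tested and for 41.4% of the genes at the members' levels. The highest control was replicate 2 for 5 members (30.2% of all genes tested) and replicate 1 for 3 (32.3%). PCBP1-OE replicate 2 was the lowest of its group for 7 of 8 members and for 30.2% of all genes tested, and replicate 3 was lowest for Srebf2. PCBP1-OE replicate 1 was the highest of its group for 6 members (30.2% of all genes tested) and replicate 3 for 2 (36.1%). Members of 1 pathway in 1 library are not independent, and these counts were not tested. The mean of the members on the log2(CPM + 1) scale was 6.83, 6.84 and 6.67 in Ctrl and 6.71, 6.56 and 6.63 in PCBP1-OE, so that PCBP1-OE replicate 1 lay above Ctrl replicate 3. The spread of this mean within groups was 0.0855 (pooled SD). By the root mean square difference between standardized log2(CPM + 1) values over the 6 libraries, the genes outside the lists nearest to the mean profile of the members were Pdzd4 (0.0991), Mis18a (0.123) and RGD1562200 (0.132). None of these 3 passed an FDR of 0.05 (0.302, 0.251 and 0.247 by the same edgeR test). Insig1 (0.224) was the member nearest to the profile and Idi1 (0.652) the farthest.

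Of the 13 other synthesis enzymes reported here, 2 were lower at an FDR of 0.05, none was higher and 11 did not pass. That is 15.4% lower, against 5.0% of all genes tested, with a median log2 fold change of -0.09. Dhcr7, which carries out the last reduction of the sterol ring, was at 30.1, 30.3 and 27.0 CPM in Ctrl and at 25.0, 23.6 and 23.5 CPM in PCBP1-OE. Its groups did not overlap, and its log2 fold change was -0.27 (SE 0.08, adjusted p = 0.0407 in the edgeR quasi-likelihood test). Msmo1, a methylsterol monooxygenase, was at 261, 275 and 247 CPM in Ctrl and at 226, 229 and 234 CPM in PCBP1-OE. Its groups did not overlap either, and its log2 fold change was -0.18 (SE 0.05, adjusted p = 0.0327, same test). With 1 library left out, the calls of Dhcr7 and Msmo1 held only without Ctrl replicate 3 (adjusted p = 0.00553 and 0.00279) and were lost in the other 5 fits (0.0921 to 0.179 and 0.0685 to 0.200). The call of Dhcr7 was also lost with upper-quartile scaling (0.0528).

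Members and listed enzymes reported here together made up 19 enzymes in pathway order. In the stretch from Acat2 to Idi1, 0 of 6 enzymes passed the edgeR test (0 at an unadjusted p under 0.05, and 0 with DESeq2, limma-voom or edgeR's exact test), with log2 fold changes from -0.16 to 0.09. From Fdps on, 5 of 13 were lower and none higher, 3 of the 5 being the members given above, with log2 fold changes from -0.27 to 0.38. The upper end was Lbr, which also has a role in the nuclear lamina and did not pass (adjusted p = 0.0893). Over all genes tested 5.0% were lower, and at the levels of the members 10.2%. Several of these enzymes, Dhcr7 and Lbr among them, lay below the levels of the members. The stretch was divided at this place after the values were seen, and the difference between its parts was not tested.

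**Figure D3:**
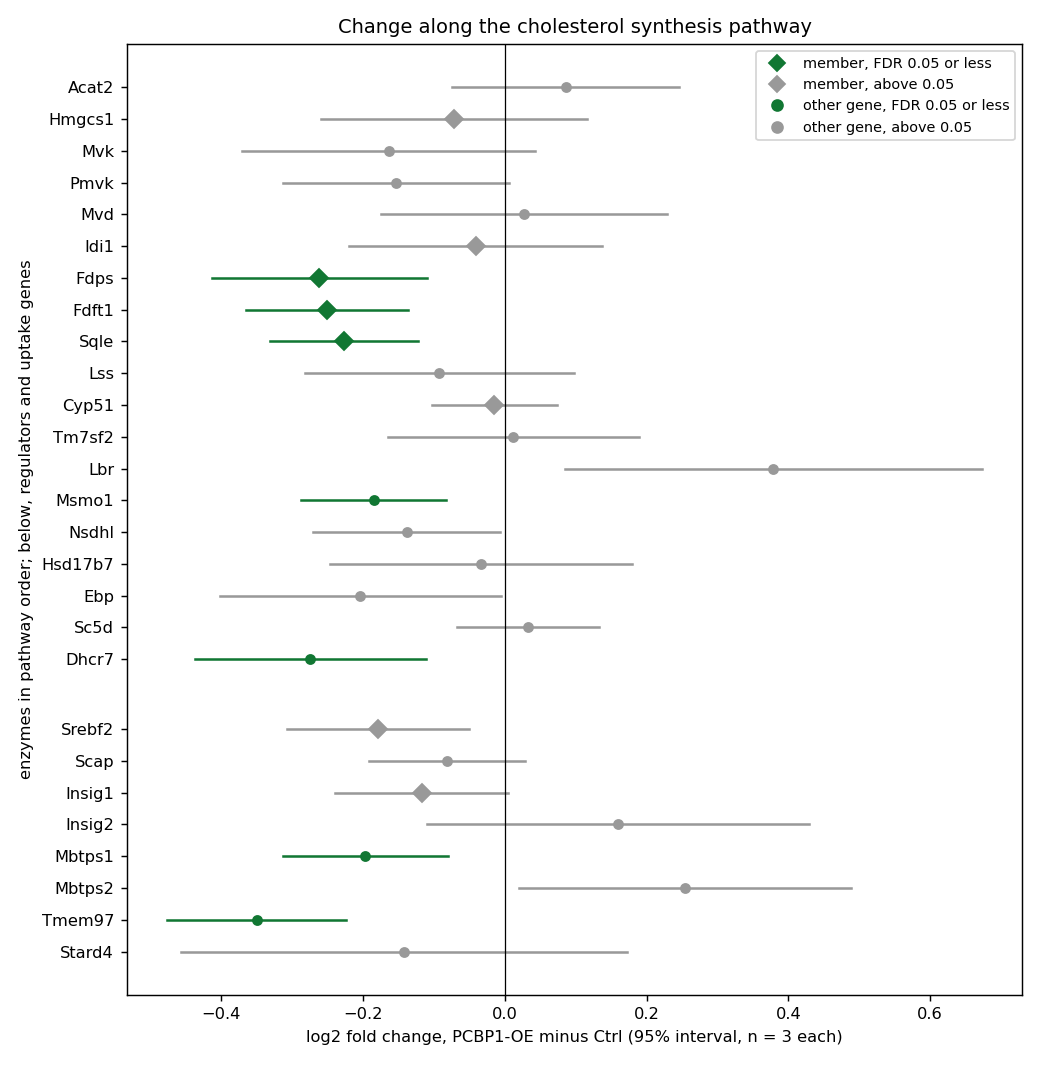
Log2 fold change, PCBP1-OE minus Ctrl (x axis), with its 95% interval (n = 3 each) for 19 enzymes in pathway order from top to bottom and, below them, regulators and uptake genes; diamonds are members, and green marks an FDR of 0.05 or less. Green symbols are absent from Acat2 to Idi1, run from Fdps to Sqle, and return at Msmo1 and Dhcr7.

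Tmem97, a sterol-responsive membrane protein that binds the cholesterol transporter NPC1, had a larger change than any member. It was at 95.4, 90.0 and 81.7 CPM in Ctrl and at 67.3, 70.1 and 72.0 CPM in PCBP1-OE, and the groups were well apart. The mean fell from 89.0 ± 6.89 to 69.8 ± 2.41 CPM (SD, n = 3 each), with a log2 fold change of -0.35 (SE 0.06, adjusted p = 0.00835 in the edgeR quasi-likelihood test, and 0.0622 without Ctrl replicate 2, the library without which its call was lost). Of 3 further SREBP2 targets with enough counts that are reported here, Tmem97 was the 1 that passed (33.3% lower, against 5.0% of all genes tested). Npc1l1 had too few counts for the test. With each of the other 5 libraries left out, Tmem97 passed (1.3e-04 to 0.0438).

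Among 8 genes of SREBP processing and sterol-dependent protein turnover, 1 was lower (12.5%, against 5.0% of all genes tested) and none higher. Mbtps1, the Golgi protease that makes the first cut in SREBPs, had a log2 fold change of -0.20 (SE 0.05, adjusted p = 0.0400, same edgeR test; 0.0582 with upper-quartile scaling), and passed with 1 library left out only without Ctrl replicate 3 (0.0387, against 0.0601 to 0.158 in the other 5 fits). Scap was at -0.08 (adjusted p = 0.313) and Insig2, the other INSIG gene, at 0.16 (adjusted p = 0.435). Srebf1, the gene of the SREBP that drives fatty acid synthesis, was at 3.52, 4.93 and 4.33 CPM in Ctrl and 5.81, 6.24 and 5.41 CPM in PCBP1-OE, with a log2 fold change of 0.45 that did not pass (SE 0.16, adjusted p = 0.0885).

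Of 10 tested SREBP1 targets of fatty acid synthesis, 1 was lower and 1 higher. Fads1, a fatty acid desaturase, fell by 0.19 on the log2 scale (SE 0.04, adjusted p = 0.0179, edgeR quasi-likelihood test), and Acaca, acetyl-CoA carboxylase, rose by 0.50 (SE 0.14, adjusted p = 0.0455). Both passed without Ctrl replicate 3 (0.00363 and 0.00299) and in none of the other 5 fits with a library left out (0.0647 to 0.132 for Fads1 and 0.0550 to 0.197 for Acaca). None of 9 tested genes of cholesterol export, storage and LXR signaling passed (1 at an unadjusted p under 0.05), and none of 6 branch enzymes that use farnesyl diphosphate for other products (1 at an unadjusted p under 0.05). DESeq2, limma-voom and edgeR's exact test also called none in these groups. Over all 49 tested genes of these lists, 5 were lower (10.2%), against 5.0% of all genes tested and 10.2% of those at the levels of the members. Of the 49 genes, 1 was higher, against 4.45% of all genes tested. In either direction 12.2% were called, against 9.45% of all genes tested. Many of the 49 genes lay outside the levels of the members, so the share at those levels is not matched to them.

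**Figure D4:**
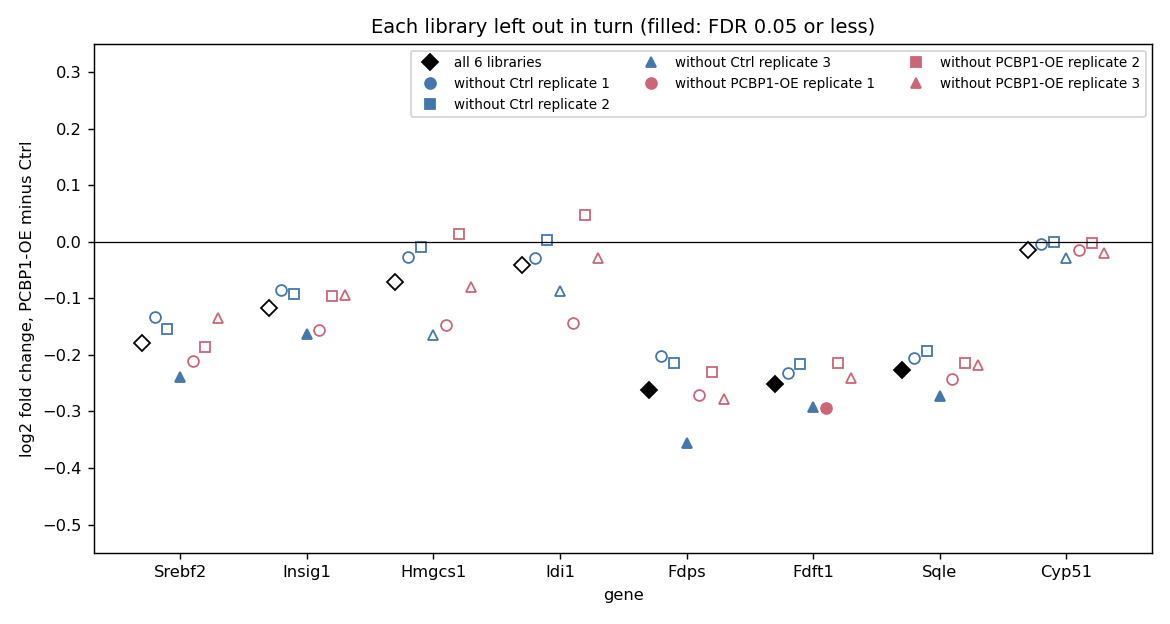
Log2 fold change, PCBP1-OE minus Ctrl (y axis), of the 8 members (x axis) with all 6 libraries and with each library left out in turn; filled symbols have an FDR of 0.05 or less in that fit. Fdps and Sqle are filled only with all libraries or without Ctrl replicate 3, and Idi1, Hmgcs1 and Cyp51 never.

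The number of members called rested on single libraries. It was 5 without Ctrl replicate 3, with Srebf2 and Insig1 added, 1 (Fdft1) without PCBP1-OE replicate 1 and 0 with any other library left out, when 3 or 4 members had an unadjusted p under 0.05. The share of all genes called moved too, to 22.3% without Ctrl replicate 3, 1.32% without PCBP1-OE replicate 1 and 0.375% to 5.42% in the other 4 fits. No member was called higher in any fit.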

How the data were processed

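Raw counts of uniquely mapped reads per gene were deposited by the authors, without normalization, for 3 Ctrl and 3 PCBP1 libraries of poly-A RNA, matched to groups by their titles. Per the study's methods, reads were cleaned with FASTX-Toolkit and aligned to Rnor_6.0 with TopHat2. The submitters' processing notes name GRCh38 instead, while the gene identifiers are those of rat. Which program counted the reads, with which strand setting and gene annotation, is not given in the sources used here. Genes that overlap, or that have a near-identical copy, are therefore uncertain.

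Libraries were scaled by TMM, and genes with too few counts were left out by filterByExpr (minimum count 10, minimum total 15), which kept 12624 genes and left out 7985. All genes were tested together by the quasi-likelihood method of edgeR 4.0.16 in R 4.3.3, with Benjamini-Hochberg adjustment. Intervals are 95% intervals of the fit. CPM was computed from TMM-scaled library sizes, except in the marker sums, which used unscaled library totals. It is not per transcript length, so no order of levels between genes is given. The genes at the levels of the members were those with a mean CPM between the lowest and highest member. DESeq2 1.42.0, limma-voom (limma 3.58.1), edgeR's exact test, other scalings and filters, a block for the replicate number, and leaving out single libraries were alternatives. The pipeline was tested on simulated data. Replicates differed by more than sampling noise (chi-square per gene 5.49 to 16.0). Nothing states that libraries came from separate transfections, so p-values measure the spread between these libraries.

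The members and gene lists were chosen with earlier results of these data known. Some genes of the pathway are not reported here, and the lists and their counts leave them out. Genes named are the members, Srebf1, Scap and Insig2, every list gene at an FDR of 0.05 or less, and the 3 genes nearest in profile. Lbr, Acat2, the genes without enough counts and the markers singled out were named after their values were seen. A list symbol on more than 1 row (Elovl6) was taken from the row with more counts.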

Additional observations from a re-analysis of the deposited data

How the results depend on the processing

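The count of members called, 3, and that of the other list genes, 6, came out at the same numbers under RLE scaling, the stricter filter (at least 1 CPM in 3 libraries), DESeq2, edgeR's exact test and limma-voom. They were 3 and 4 with upper-quartile scaling, where Dhcr7 (adjusted p = 0.0528) and Mbtps1 (0.0582) no longer passed, and 4 and 8 without a filter. Fdps, Fdft1 and Sqle passed in all 7 of these. Upper-quartile scaling moved the calls over all genes from 631 lower and 562 higher to 427 lower and 655 higher. With 1 library left out in turn the members called ranged from 0 to 5 and the other list genes from 0 (without Ctrl replicate 2) to 12 (without Ctrl replicate 3), with 1 in each of the other 4 fits. The 0 stands beside 8 list genes at an unadjusted p under 0.05. The cause was not tested.

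With the replicate number as a block, 0 members passed (4 at an unadjusted p under 0.05) and 0 other list genes (8 at an unadjusted p under 0.05), against 16 called over all genes. Deviations of same-numbered libraries from their group means had correlations of -0.104, -0.0810 and -0.107 across genes, and those of libraries with different numbers 0.015 to 0.083. Such deviations sum to 0 within a group, so these values cannot settle whether the numbers pair the libraries. With 1 library left out the median log2 fold change of the members lay between -0.20 and -0.11. Signs turned for Cyp51 with upper-quartile scaling (0.0050). With 1 library left out, Cyp51 ranged from -0.0291 (without Ctrl replicate 3) to 2.0e-04 (without Ctrl replicate 2), Idi1 from -0.1429 (without PCBP1-OE replicate 1) to 0.0476 (without PCBP1-OE replicate 2; 0.0041 without Ctrl replicate 2) and Hmgcs1 from -0.164 (without Ctrl replicate 3) to 0.0137 (without PCBP1-OE replicate 2), and none of these 3 passed the test in any fit. The 95% intervals of Hmgcs1 and Idi1 reach from -0.26 to 0.12 and from -0.22 to 0.14, so changes within these bounds are compatible with the data.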
